A study of Mus musculus with 36 samples.

Results

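The constitutive proteasome genes were followed in mouse diaphragm, the main breathing muscle, in dystrophic mdx mice and control mice. Members were all probe sets whose single gene symbol starts with Psma, Psmb, Psmc, Psmd, Psme or Psmf, leaving out the immunoproteasome genes Psmb8, Psmb9 and Psmb10. This gave 50 probe sets for 39 genes, of 12422 probe sets for 8251 genes on the array. RNA from whole diaphragm was read on 1-colour Affymetrix arrays at 7, 14, 23, 28, 56 and 112 days of age, with 3 arrays of mdx and 3 of control diaphragm at each age, 36 arrays in all. The mdx mice carry a mutation of Dmd, the gene for dystrophin, and the labels call the others control; strain, sex and pooling were not stated. The labels number the arrays of a group without tying them to different animals, and the p-values therefore cover array-to-array spread only, some or all of which could be technical.

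The proteasome is the cell's main protease for proteins tagged with ubiquitin. Its 20S core is a barrel of stacked alpha and beta rings, in which Psmb5, Psmb6 and Psmb7 hold the active sites. The 19S regulator caps the barrel: ATPases (Psmc genes) unfold the substrate, and non-ATPase subunits (Psmd genes) bind and remove ubiquitin. Psme1, Psme3 and Psme4 encode activators that can take the place of the 19S cap. In muscle this route degrades myofibrillar proteins, and inflammation can exchange the active subunits for Psmb8, Psmb9 and Psmb10.

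A probe set was tested if at least 3 arrays reached a signal of 374.5, percentile 40 of all values, and 45 of the 50 members, for 37 genes, did so. They were 7 probe sets for alpha ring subunits, 4 for catalytic and 7 for structural beta subunits, 8 for ATPases, 12 for non-ATPases, 3 for assembly chaperones, 3 for activators and 1 for a gene that shares only the prefix, Psme3ip1. The 5 left out were probe sets of Psmc3ip, a meiotic recombination factor that is no subunit, of Psme1, Psmc5 and Psmb4, and the single probe set of Psmd2. No member had a symbol starting with Psmf. Levels are given as deposited signal on a linear scale and are compared only within a probe set. Differences are on the scale of log2(signal + 32), which understates the change of dim probe sets. A member is called where limma's adjusted p, by Benjamini-Hochberg over all 9291 probe sets tested, was under 0.05. As a check of the tissue, Ckm, muscle creatine kinase, read at least 13125.2 and Mylpf, a fast myosin light chain, at least 2695.9 on every array. The probe set of Acta1, skeletal actin, ran from 150.8 to 54486.4 and so read below the signal limit on at least 1 array. Summed over 20 genes of mature muscle, Acta1 included, the signal was at least 205400 on every array. In whole tissue, fewer cells of a type and less RNA per cell cannot be told apart.

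Proteasome genes in mammals are known targets of Nfe2l1, which binds antioxidant response elements, and of the CCAAT-binding factor NF-Y. RefSeq promoter windows on GRCm38.p6, from 250 bases before to 50 after the start, were found for 33 of the 39 genes. The element core TGACNNNGC, on either strand, lay in 6 of them, which is 18.2% against 14% of all 27025 genes with a window. CCAAT lay in 14, or 42.4% against 41.1%, and no member held both. Shares this near those of all genes set the members apart by neither motif. The 6 genes with the core were Psmb5, Psmb6, Psmc6, Psmd9, Psmd12 and Psme4. Below are the members with the core that had the lowest adjusted p for genotype, Psme4 and Psmd9, and the catalytic subunits Psmb6 and Psmb5, added after their values were seen. They lie at chr11:30771525-30771784 (+ strand), chr5:123227940-123228199 (+ strand), chr11:70525107-70525366 (+ strand) and chr14:54617986-54618245 (- strand), each from 250 bases before to 10 after the start. Capitals mark the core; in Psme4 it reads on the opposite strand. Psme4's match starts 7 bases before the start, Psmb6's 9, Psmd9's 31 and Psmb5's 47.
Psme4: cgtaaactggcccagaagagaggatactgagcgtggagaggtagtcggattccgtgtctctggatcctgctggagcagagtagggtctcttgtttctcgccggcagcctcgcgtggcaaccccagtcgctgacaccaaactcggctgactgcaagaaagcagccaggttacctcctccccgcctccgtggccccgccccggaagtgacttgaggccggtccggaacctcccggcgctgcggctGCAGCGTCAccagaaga
Psmd9: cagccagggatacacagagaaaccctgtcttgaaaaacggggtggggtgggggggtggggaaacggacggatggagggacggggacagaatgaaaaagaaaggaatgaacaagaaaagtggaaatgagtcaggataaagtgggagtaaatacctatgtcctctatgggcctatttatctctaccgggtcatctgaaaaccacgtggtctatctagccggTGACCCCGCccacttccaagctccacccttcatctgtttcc
Psmb6: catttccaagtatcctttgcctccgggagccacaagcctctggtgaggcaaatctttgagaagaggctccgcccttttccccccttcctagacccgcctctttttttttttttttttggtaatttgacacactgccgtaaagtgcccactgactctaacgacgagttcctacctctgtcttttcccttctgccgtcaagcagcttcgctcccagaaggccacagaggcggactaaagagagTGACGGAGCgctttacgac
Psmb5: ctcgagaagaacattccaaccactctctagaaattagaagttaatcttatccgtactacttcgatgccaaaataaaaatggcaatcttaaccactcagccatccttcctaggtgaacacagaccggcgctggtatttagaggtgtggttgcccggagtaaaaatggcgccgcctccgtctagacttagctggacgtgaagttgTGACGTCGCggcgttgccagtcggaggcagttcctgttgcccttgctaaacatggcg

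The arrays differed in ways that touch several results. For each array the median over the 45 members of the log2 deviation from that probe set's mean over all arrays was taken. At 14 days this median was low on all arrays, between -0.22 and -0.08 in mdx and between -0.25 and -0.13 in control diaphragm. At 23 days it was high, between 0.16 and 0.19 in mdx and between 0.05 and 0.19 in control diaphragm. The median signal of the array ran the other way, from 663 to 687.8 over the 14-day arrays and from 450.6 to 515.2 over the 23-day arrays. The first mdx array at 7 days stood at -0.16, against 0.1 and 0.09 on the others. Its array median was 700.2, against 593.6 and 589.4. Its Gapdh 3′ to 5′ signal ratio, read as a sign of RNA quality, was 0.83, against 0.32 and 0.704, so this ratio did not clearly set it apart. That Gapdh ratio was 0.32 to 0.83 in mdx and 0.0357 to 0.147 in control diaphragm at 7 days, and 0.532 to 0.665 in mdx and 0.518 to 0.93 in control diaphragm at 112 days. Albumin, a liver transcript, passed 10000 on 9 arrays. On the first mdx array at 7 days it read 35486.9, against 2398.9 and 3189.2 on the other mdx arrays of that age. The part of these features in the results was not tested beyond the alternative fits given beside them.

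**Figure D1:**
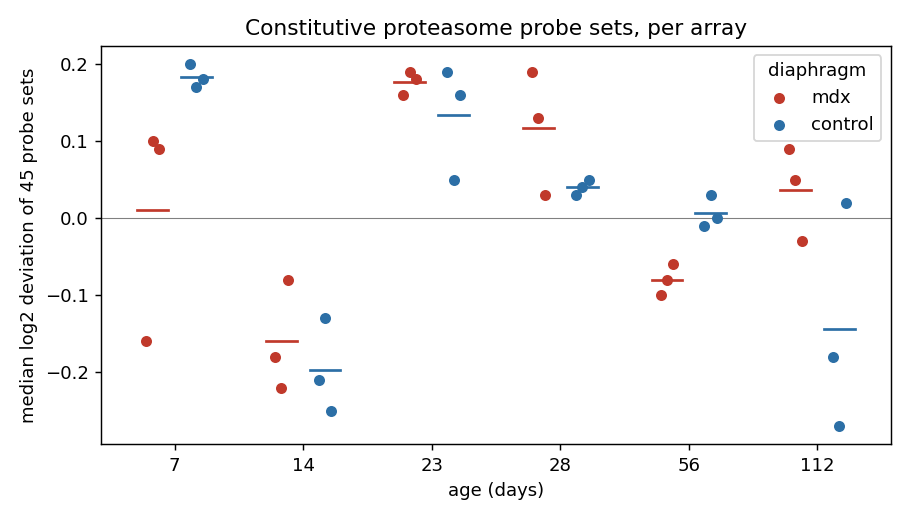
Median log2 deviation of the 45 tested constitutive proteasome probe sets on each array (points; bars are means of 3 arrays) by age in days, mdx left and control right. Both genotypes have their lowest mean at 14 days, and the control arrays run between 0.17 and 0.2 at 7 days and between -0.27 and 0.02 at 112 days.

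In control diaphragm, many subunits of the 20S core and the 19S cap fell between 7 and 112 days. Of the 45 probe sets, 20 fell and 5 rose, against 20.3% lower and 21.4% higher among all probe sets tested. By gene, 17 of 37 fell and 2 rose. The median difference was -0.41 over the members, against 0.1 over all probe sets. All 3 arrays at 112 days lay below all 3 at 7 days for 26 members and above them for 5, against 25.2% and 26% of all probe sets. The fall took in 5 of 7 alpha ring, 2 of 4 catalytic and 1 of 7 structural beta probe sets. It also took in 5 of 8 ATPase and 7 of 12 non-ATPase probe sets, and none of the 3 activators or 3 chaperones. The rises were in 1 of 4 catalytic, 2 of 7 structural beta, 1 of 12 non-ATPase and 1 of 3 activator probe sets.

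Markers of other cells and states moved in the same contrast. Of 10 proliferation genes 9 fell and 1 rose in control diaphragm, with sums of 6873 to 10650 at 112 days, against 19070 to 20460 at 7 days. Of 14 genes listed as markers of regenerating muscle 11 fell and 1 rose, and of 9 fibroblast genes 4 fell. Of 7 adipocyte genes 5 rose, with sums of 37100 to 43500 at 112 days, against 14450 to 22680 at 7 days, and of 20 genes of mature muscle 7 rose. Of 19 macrophage genes 5 rose and 1 fell, of 8 endothelial genes 1 rose and 2 fell, and of 8 liver genes 1 rose. The part of these in the members' fall was not tested.

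Among the ring subunits, Psma4, of the alpha ring that gates the core, read 6986.2, 5545.6 and 6022.3 in control diaphragm at 112 days, against 11252.2, 11434.3 and 10814.9 at 7 days. The groups were far apart, and the fall of 0.86 ± 0.115 (log2 difference ± SE, n = 3 arrays each) had a limma adjusted p of 7.52e-07. Psma2, Psma5, Psma6 and Psma7, also of this ring, fell by 0.59, 0.47, 0.62 and 0.49. Psma1 and Psma3 were not called, at 0.04 and -0.12. Psmb6, the caspase-like site, read 5043.5, 5146.6 and 5969.4 at 112 days, against 8600.6, 11793.8 and 9445 at 7 days (-0.87 ± 0.178, limma adjusted p = 0.000275). Psmb5, the chymotrypsin-like site, fell by 0.76 on the probe set 101558_s_at, with no overlap between 5682.5 to 7917.5 at 112 days and 10701 to 11622.7 at 7 days. Psmb7, the trypsin-like site, was not called: its difference was -0.06. Thus 2 of the 3 catalytic genes fell on at least 1 probe set.

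The 3 largest called falls were in the 19S cap: those of Psmd4, Psmc2 and Psmd8. Psmd4, which binds ubiquitin chains, read 3375.1, 3307.2 and 4922 at 112 days, against 9104.4, 9402.1 and 9099.1 at 7 days (-1.27 ± 0.213, limma adjusted p = 2.46e-05). Psmc2, an ATPase of the base ring, read 2939.9, 4642.4 and 5948.7 at 112 days, against 9739, 9379.7 and 9655.7 at 7 days (-1.14 ± 0.209, limma adjusted p = 7.51e-05). The 112-day arrays of Psmc2 scattered widely, yet all lay below the 7-day ones. Psmd14, the deubiquitinase of the lid, read 2811.5, 2555.7 and 2735.2 at 112 days, against 4304.8, 4361.2 and 4402.9 at 7 days (-0.68 ± 0.104, limma adjusted p = 5.9e-06). Psmd8, a lid subunit, read 2407.1, 2343.3 and 2323.9 at 112 days, against 4514, 4713.4 and 5466.4 at 7 days (-1.04 ± 0.203, limma adjusted p = 0.000159). Psmd3, Psmd13 and Psmd6, other lid subunits, fell by 0.77, 0.73 and 0.46. The ATPases Psmc1 and Psmc6 both fell by 0.42. Psmc4, Psmc5 and Psmd1 were not called, at 0.23, -0.04 and -0.41. Of the activators, Psme4 (PA200) rose by 0.41 ± 0.154 (limma adjusted p = 0.0349), with 7454.9, 4571 and 5759.7 at 112 days, against 4668, 3917.1 and 4582.5 at 7 days; its groups overlapped.

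The calls differed in how they held. Of the 20 falls, 17 kept their call under every alternative other than those for albumin, the Gapdh ratio and the array median, and 11 under all of them: Psma2, Psma4, Psmb5 101558_s_at, Psmb6, Psmc2, Psmc3 93735_f_at, Psmd3, Psmd4, Psmd8, Psmd13 and Psmd14. With the array median as a covariate, an alternative chosen after seeing the data, 16 fell and the median difference of the members was -0.24. Across all 6 ages the control course was not a steady decline. Psmd4 in control diaphragm ran between 3184.5 and 4318.6 at 14 days, between 9538.6 and 9724.1 at 23 days and between 4279.7 and 5308.6 at 56 days. Psma4 had no such dip: its control arrays ran from 8161.7 to 11888.1 at 14 days, 9007.6 to 9983.1 at 23 days, 8560 to 9045 at 28 days and 6854 to 7274.6 at 56 days. Any dependence on age in control diaphragm was called for 30 of 45 members, close to the 62.4% of all probe sets.

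**Figure D2:**
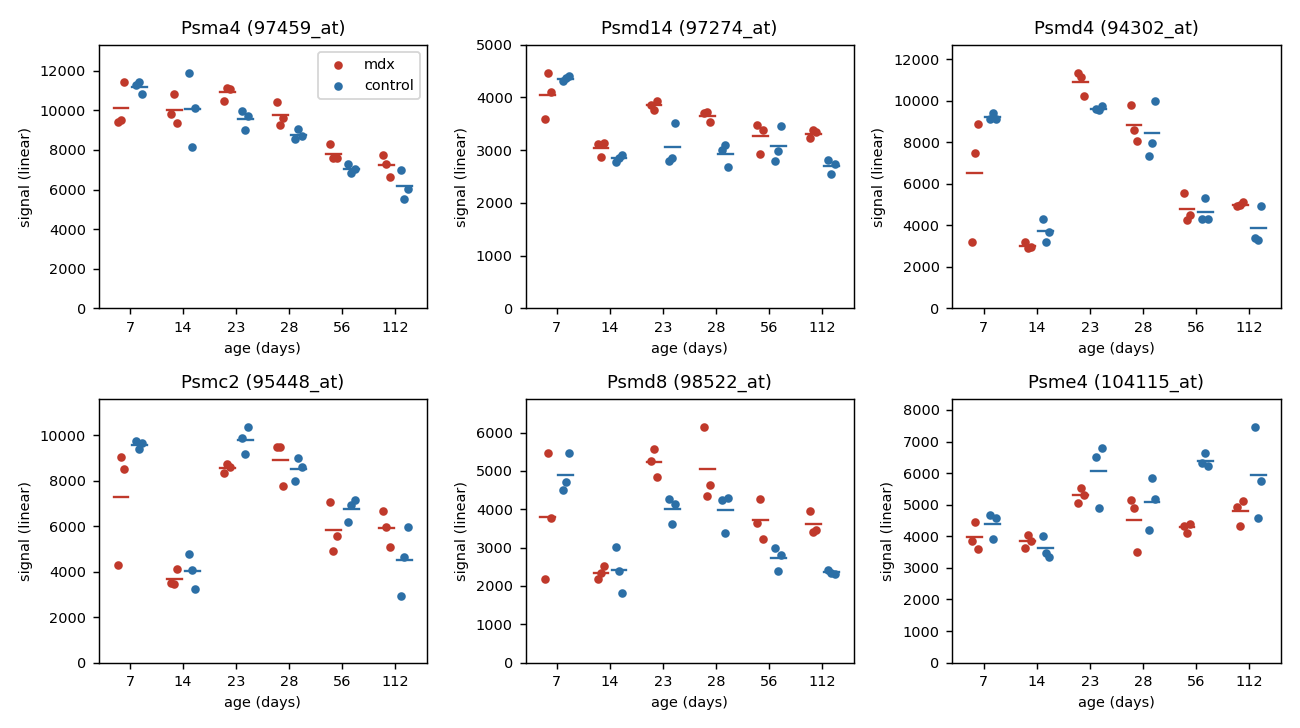
Deposited signal (linear scale) of 6 members on each array by age in days, mdx left and control right of each age; bars are means of 3 arrays. Psmd4, Psmc2 and Psmd8 are low at 14 days in both genotypes, Psma4 declines through the later ages, and Psme4 at 56 days lies between 4119.4 and 4393.6 in mdx, below 6218.5 to 6629.2 in control diaphragm.

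In mdx diaphragm, few members were called between 7 and 112 days. Psma4, Psmd3 and the activator gene Psme3 fell and Psmb4 rose on the probe set 98557_f_at, so 3 of 45 fell and 1 rose, against 9.18% lower and 8.18% higher among all probe sets. The median difference of the members was 0.06, against 0.04 over all. All 3 arrays at 112 days lay below those at 7 days for 3 members and above them for 4, against 12.7% of all probe sets each way. Psma4 read 7726.7, 7305.4 and 6617.9 at 112 days, against 9412.5, 9496.8 and 11453.4 at 7 days (-0.48 ± 0.115, limma adjusted p = 0.00288). It and Psmd3 (-0.47 ± 0.159, limma adjusted p = 0.0403) fell in both genotypes, and the other 18 probe sets that fell in control diaphragm were not called in mdx. Psme3, of the nuclear PA28 gamma activator, fell by 0.43 ± 0.138 (limma adjusted p = 0.0279). Psmb4, a structural beta subunit, rose by 0.32 ± 0.111 (limma adjusted p = 0.0454). Without the first mdx array at 7 days, 8 members fell in mdx diaphragm and 0 rose, against 11.6% each way of all probe sets. Without the second mdx array at 7 days, 1 fell, against 6% of all probe sets. In a fit of the 6 arrays alone 0 were called.

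The difference between these 2 changes was tested as an interaction: the change in mdx minus the change in control diaphragm. It was positive and called for 10 of 45 members and negative and called for none, against 6.25% and 3.59% of all probe sets. The median was 0.36 over the members and -0.03 over all. The called members came from the alpha ring (Psma2, Psma5, Psma7), the ATPases (Psmc1, Psmc2, Psmc6), the non-ATPases (Psmd4, Psmd8, Psmd13) and the beta ring (Psmb4 98557_f_at). For 9 of these 10 the control fall was itself called, the exception being Psmb4. The same control arrays enter both contrasts, so this overlap is partly built in. In the same interaction 12 of 14 genes of regenerating muscle and 14 of 19 macrophage genes were positive and called, and their part in the members' values was not tested. Over all 45 members, the mdx change lay above the control change for 34, against 48% of all probe sets.

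Psmd8 showed the largest called difference, 1.06 ± 0.287 (limma adjusted p = 0.0162). At 112 days it read 3961.2, 3413.9 and 3466 in mdx diaphragm, against 2407.1, 2343.3 and 2323.9 in control diaphragm. At 7 days it read 2182.4, 5471.2 and 3771.2 in mdx diaphragm, against 4514, 4713.4 and 5466.4 in control diaphragm. The genotypes did not overlap at 112 days and overlapped at 7 days, where the first mdx array was lowest. Psmd4 (1.02 ± 0.302, limma adjusted p = 0.0286) read 4926.6, 4971 and 5106.7 in mdx diaphragm at 112 days, against 3375.1, 3307.2 and 4922 in control diaphragm. At 7 days it read 3195.9, 7463 and 8855.2 in mdx diaphragm, against 9104.4, 9402.1 and 9099.1 in control diaphragm. All mdx arrays of Psmd4 were thus below control at 7 days and above it at 112 days, by a few units for 1 pair of arrays. Psmc2 (0.91 ± 0.296, limma adjusted p = 0.048) read 6688.2, 5963.6 and 5104.7 in mdx diaphragm at 112 days and 4301.9, 9052.2 and 8501.1 at 7 days. Its mdx and control arrays overlapped at 112 days.

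Psma2 at 112 days read 10262.6, 10293 and 9794.5 in mdx diaphragm, against 7975.9, 8061.2 and 10450.7 in control diaphragm. At 7 days it read 7502.7, 11239 and 10485.1 in mdx diaphragm, against 13198.1, 12312.1 and 14130.8 in control diaphragm (interaction 0.66 ± 0.194, limma adjusted p = 0.026). The genotypes were apart at 7 days and overlapped at 112 days. Psma7 at 112 days read 6908.6, 6732.2 and 7102.5 in mdx diaphragm, against 5074.2, 4752.3 and 5884.6 in control diaphragm. At 7 days it read 5123.2, 6083.7 and 6920.7 in mdx diaphragm, against 7280.3, 7074.1 and 7667.2 in control diaphragm (interaction 0.69 ± 0.203, limma adjusted p = 0.0264). Here the genotypes were apart at both ages, in opposite directions. The interaction of the catalytic Psmb6 was 0.76 and was not called (95% interval 0.25 to 1.28, limma adjusted p = 0.0512), and its arrays at 112 days were 5132.9, 9326.4 and 6870.6 in mdx diaphragm, against 5043.5, 5146.6 and 5969.4 in control diaphragm.

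The number of called interactions rested on single arrays. Without the first mdx or the third control array at 7 days it was 1, against 4.21% and 4.62% of all probe sets. It was also 1 without the second control array at 112 days, against 4.96%. It was 14 without the second mdx array at 7 days or without the third control array at 112 days. It was 3 without the first control or second mdx array at 112 days, against 4.98% and 5.04% of all probe sets. Without the first and second control arrays at 7 days it was 4 and 5, against 4.7% and 5.5%. With the Gapdh ratio as a covariate it was 3 and in a fit of the 12 arrays alone 0. Without the arrays high in albumin it was 1, but that fit holds 1 control array at 112 days and 2 arrays in each of the other 3 groups, so the lone array is assumed to vary like the other groups. Quantile normalization gave 11 and the array median as a covariate 10.

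**Figure D3:**
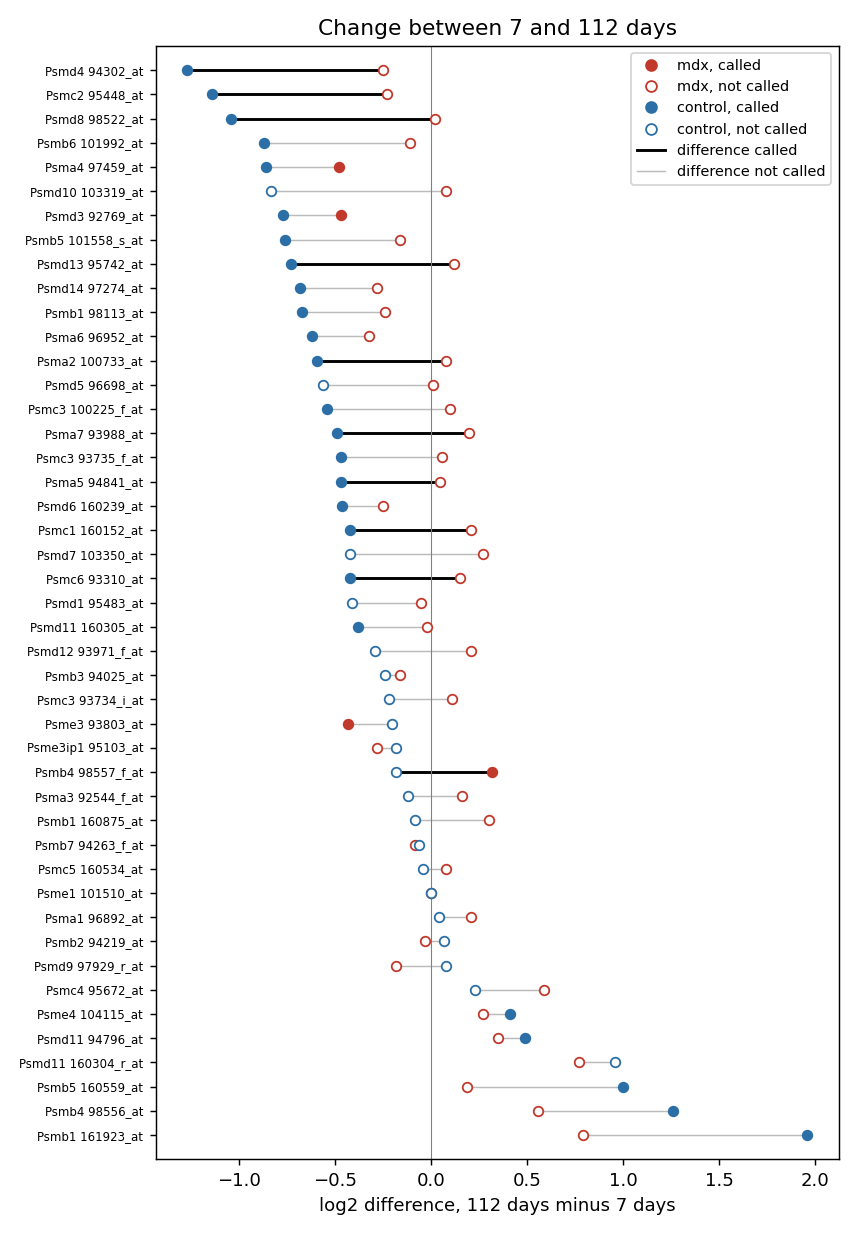
log2 difference between 112 and 7 days for each of the 45 tested probe sets, in mdx (red) and control diaphragm (blue); filled points passed a limma adjusted p of 0.05 and black lines mark the 10 called interactions. Control points spread to -1.27 on the left, while mdx points lie at or above -0.48.

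At single ages few members were called by genotype. At 7 days, 0 of 45 members were called, against 0.0538% higher and 0.409% lower of all probe sets. An unadjusted p under 0.05 was found for 9 members, against 990 of all 9291 probe sets. The members' median was -0.15, against 0.04 over all, with 10 above 0, against 54.6% of all probe sets. All 3 mdx arrays lay below the control arrays for 9 members and above them for 1, against 7.16% and 8.22% of all probe sets. The first mdx array at 7 days, which stood apart, is among these. At 14 days 0 were called, against 0.161% higher and 0.0323% lower of all, and the median was 0. Under an unadjusted p of 0.05 were 5 members, against 609 of all 9291 probe sets. The mdx arrays of Psme3, Psmb5 101558_s_at and Psmb1 98113_at lay wholly above the control arrays and those of Psmd4, Psmc3 93734_i_at and Psmb1 161923_at wholly below, against 6.87% and 6.05% of all probe sets. At 23 days 0 were called, against 2.68% higher and 0.807% lower of all. Under an unadjusted p of 0.05 were 3 members, against 1307 of all 9291 probe sets, a larger share. Here 10 members lay wholly above and 1 wholly below, against 12.6% and 10.3% of all probe sets. At 28 days 0 were called, against 2.42% higher and 0.538% lower of all. An unadjusted p under 0.05 was found for 1176 of all 9291 probe sets and for only 1 member. That member was Psmd14 (0.32, 95% interval 0.1 to 0.53, limma adjusted p = 0.105). At 28 days 7 members lay wholly above and 1 wholly below, against 11.5% and 10% of all probe sets. At 23 and 28 days, 19 macrophage marker genes summed to 65650 to 127300 over the mdx arrays, against 22080 to 32260 over the control arrays.

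At 56 days Psme4 and Psmb7 were lower and Psmd13 was higher in mdx diaphragm, which is 1 higher and 2 lower of 45, against 9.27% and 7.38% of all probe sets. By array, 5 members lay wholly above and 9 wholly below control, against 24.2% and 12.7% of all probe sets. Psme4, the PA200 activator known from DNA repair and sperm histone removal, read 4326.8, 4119.4 and 4393.6 in mdx diaphragm, against 6310.7, 6629.2 and 6218.5 in control diaphragm. The groups were far apart (-0.57 ± 0.154, limma adjusted p = 0.00955), although the difference was -0.32 and not called (limma adjusted p = 0.417) with the array median as a covariate. The array median at 56 days was 669.8 to 723.4 in mdx and 552 to 606.2 in control diaphragm. Psmb7 read 8038.6, 8929.8 and 9093.7 in mdx diaphragm, against 11127.6, 10203.1 and 10696.4 in control diaphragm (-0.30 ± 0.0994, limma adjusted p = 0.0374). Psmd13 read 3302.2, 2591.9 and 2534.6 in mdx diaphragm, against 1900.8, 2123.2 and 1947.2 in control diaphragm (0.48 ± 0.168, limma adjusted p = 0.046). Neither group pair overlapped, but with quantile normalization neither was called, at -0.12 for Psmb7 and 0.41 for Psmd13. The catalytic Psmb5 (101558_s_at) and Psmb6 differed by 0.04 (95% interval -0.28 to 0.36) and 0.05 (-0.31 to 0.42).

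At 112 days the alpha subunit Psma5, the ATPase Psmc1 and the lid subunit Psmd8 were higher in mdx diaphragm, 3 of 45 with none lower, against 7.65% and 4.52% of all probe sets. The median over members was 0.23, against 0.02 over all, with 35 of 45 above 0, against 51.7% of all probe sets. All mdx arrays lay above the control arrays for 10 members and below them for 0, against 13.7% and 9.84% of all probe sets. Psma5 read 5621, 5964.7 and 5309 in mdx diaphragm, against 4341, 3477.7 and 5029.4 in control diaphragm (0.41 ± 0.115, limma adjusted p = 0.0154). Psmc1 read 5421.7, 5826 and 5378 in mdx diaphragm, against 4377.6, 3903.5 and 4086.8 in control diaphragm (0.42 ± 0.132, limma adjusted p = 0.0302). Both genes' groups were apart, as were those of Psmd8 given above (0.61 ± 0.203, limma adjusted p = 0.0471). None of the 3 calls remained in a fit of the 6 arrays alone, and leaving out single arrays gave between 0 calls (without the second control array) and 7 (without the third control array). The array median as a covariate gave 11 calls. Psmb5 (101558_s_at) and Psmb6 were not called at 0.35 (95% interval 0.03 to 0.67) and 0.36 (0 to 0.72), nor was Psmb7 at -0.12 (-0.32 to 0.08). Macrophage markers summed to 99880 to 105400 in mdx and 29260 to 29780 in control diaphragm, and 14 genes of regenerating muscle to 93470 to 114900 in mdx and 30500 to 41130 in control diaphragm. At 7 days the sum of these 14 genes was 67280 to 82040 in mdx and 82750 to 87440 in control diaphragm. At 112 days it was thus higher on the mdx arrays and lower on the control arrays than at 7 days. Fibroblast markers summed to 137200 to 163700 in mdx and 68890 to 81020 in control diaphragm at 112 days; at 7 days they summed to 154800 to 204300 in mdx and 134000 to 153900 in control diaphragm. The part of these cells in the members' values was not tested.

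**Figure D4:**
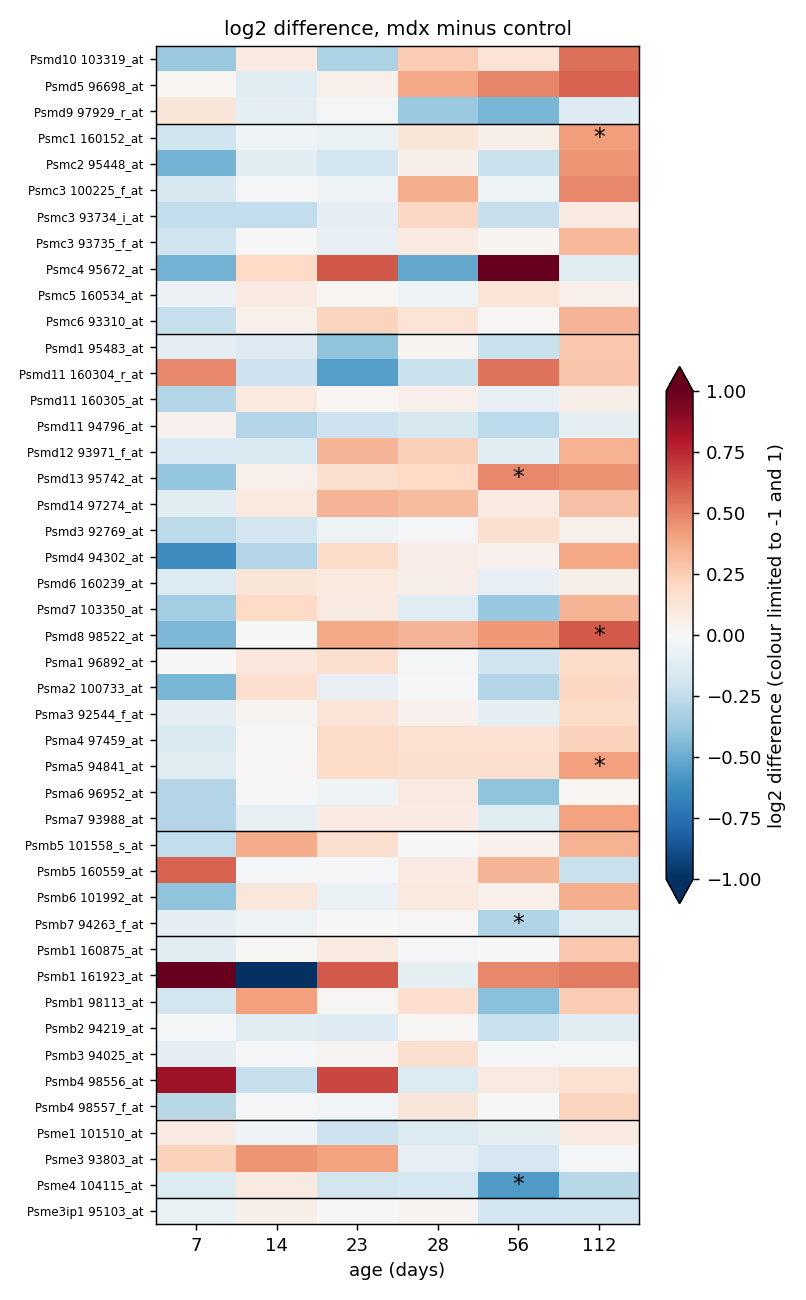
log2 difference of mdx minus control (colour, limited to -1 and 1) for 45 probe sets by age in days, grouped by role with lines between roles; stars mark a limma adjusted p under 0.05. There are 3 stars at 56 days and 3 at 112 days, and none at the younger ages.

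Averaged over the 6 ages, Psmd14 and Psma5 were higher and Psme4 and Psmd11 (94796_at) lower in mdx diaphragm, 2 and 2 of 45, against 10.4% and 7.41% of all probe sets. For Psmd14 the mean difference was 0.17 ± 0.0425 (18 arrays each, limma adjusted p = 0.00415). At 23 days it read 3866.2, 3754.1 and 3925 in mdx diaphragm, against 2788, 2851.5 and 3514.4 in control diaphragm. At 28 days it read 3712.7, 3722.1 and 3535 in mdx diaphragm, against 3009.5, 3103.9 and 2686.3 in control diaphragm. At 112 days it read 3225.4, 3378.1 and 3341.2 in mdx diaphragm, against 2811.5, 2555.7 and 2735.2 in control diaphragm. The genotypes were apart at these 3 ages. At 7 days Psmd14 read 3600, 4466.1 and 4100.6 in mdx diaphragm, against 4304.8, 4361.2 and 4402.9 in control diaphragm. At 14 days it ran from 2873.5 to 3139.5 in mdx and from 2771.8 to 2903.1 in control diaphragm, and at 56 days from 2934.3 to 3480 in mdx and from 2793.3 to 3450 in control diaphragm. The genotypes overlapped at 7, 14 and 56 days. The call held when any single array was left out, with differences between 0.16 and 0.19, but not without the arrays high in albumin (0.16, limma adjusted p = 0.0543).

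Psme4 differed by -0.21 ± 0.063 over the ages (limma adjusted p = 0.0173), with group pairs apart only at 56 days. Its other mdx groups ran from 3607.2 to 4448.8 at 7 days, 3640.7 to 4055.5 at 14, 5067.2 to 5538.4 at 23, 3509.7 to 5142.9 at 28 and 4337.3 to 5123.6 at 112 days. The control groups ran from 3917.1 to 4668, 3359.4 to 4021.2, 4910.3 to 6803.3, 4195.3 to 5838.3 and 4571 to 7454.9 at the same ages. With the array median as a covariate the mean difference of Psme4 was -0.13 and not called (limma adjusted p = 0.23). Psma5 (0.13 ± 0.0468, limma adjusted p = 0.0429) was apart at 112 days and at 23 days, where it read 5507.1 to 6142.8 in mdx and 4781.8 to 5376 in control diaphragm. Psmd11 94796_at (-0.16 ± 0.0555, limma adjusted p = 0.0365), a lid subunit, ran from 10146.1 to 12650.3 in mdx and from 12634.7 to 15093.6 in control diaphragm at 56 days, an overlap of a few units. Psma5 lost its call in 21 and Psmd11 94796_at in 13 of the 36 fits that left out 1 array. Next in order were Psmd8 (0.22, limma adjusted p = 0.068) and Psme3 (0.13, limma adjusted p = 0.101), neither called. Psme3 differed by age: at 14 days it read 3041.1, 3613.1 and 2648.1 in mdx diaphragm, against 2217.9, 1994 and 2629.7 in control diaphragm, and at 112 days 1495.3 to 1954.2 in mdx and 1559.3 to 1735.9 in control diaphragm. It was apart at 14 and 23 days and overlapped at 112 days.

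A dependence of the genotype difference on age was called for 0 of 45 members, against 8.93% of all probe sets. An unadjusted limma p under 0.05 was reached by 11 members, against 2277 of all 9291 probe sets, a like share. The lowest adjusted p was 0.0613, for Psmb1 161923_at, followed by Psmd12 at 0.0755, and Psmd13 at 0.0869. Psmd12, a lid subunit, read 4921.9, 4806.5 and 4890 in mdx diaphragm at 23 days, against 4081.5, 3262.9 and 4261.8 in control diaphragm. At 56 days it ran from 3050.5 to 3397.4 in mdx and from 3177.3 to 3897.2 in control diaphragm. The genotypes were apart at 23 days and overlapped at 56 days.

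Several genes have more than 1 tested probe set, and these often disagreed. In control diaphragm, 1 probe set of Psmb1 rose and 1 fell between 7 and 112 days, and the same held for Psmb5 and Psmd11. Psmb1 161923_at, a dim probe set, read 477.4, 396.5 and 122.1 at 112 days, against 41.2, 103.7 and 25.1 at 7 days (1.96 ± 0.486, limma adjusted p = 0.0019). It reached the signal limit on 9 of the 36 arrays. Psmb1 98113_at, with a mean signal of 6269, fell by 0.67, and the brightest Psmb1 probe set, 160875_at, was not called at -0.08. Psmb5 160559_at, with a mean signal of 1422, rose by 1.00, whereas the brighter 101558_s_at fell. The dim Psmb5 probe set was highest at 14 days, between 1800.3 and 2727.3 in mdx and between 1722.1 and 2462.6 in control diaphragm, and lowest at 23 days, between 542.1 and 560.6 in mdx and between 489.9 and 688.2 in control diaphragm. The brighter one ran the other way, with 7416.8 to 9626.4 in mdx and 5713.1 to 7270.8 in control diaphragm at 14 days and 11171.3 to 13757.2 in mdx and 10828 to 11718.7 in control diaphragm at 23 days. Psmb4 98556_at, with a mean signal of 451.7, rose by 1.26 in control diaphragm, and the bright 98557_f_at was not called at -0.18. Psmd11 94796_at rose by 0.49 in control diaphragm and held this call under every alternative, while 160305_at fell by 0.38 and lost its call with quantile normalization (limma adjusted p = 0.069). For 3 of the 5 rises in control diaphragm the gene has a brighter probe set that did not rise. Probe sets whose names end in _f_at, _s_at, _i_at or _r_at may also read related sequences, so their values are uncertain by gene.

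Of the 3 immunoproteasome genes, 2 were higher in mdx diaphragm for the mean over the ages, 1 at 56 days, 1 at 112 days and 0 at the other single ages. Psmb9 was called in none of these genotype contrasts. Psmb8, which takes the place of Psmb5, averaged 3041 ± 356 in mdx and 1403 ± 450 in control diaphragm at 112 days (SD, n = 3 each; log2 difference 1.15 ± 0.188, limma adjusted p = 6.48e-05). Over the 6 ages it was higher by 0.36 in mdx diaphragm, and Psmb10, which takes the place of Psmb7, by 0.23. Psmb10 averaged 3165 ± 303 in mdx and 2210 ± 279 in control diaphragm at 56 days (0.51 ± 0.154, limma adjusted p = 0.0194). Between 7 and 112 days Psmb8 rose by 1.62 and Psmb9 by 1.96 in mdx diaphragm; in control diaphragm Psmb9 rose by 1.22 and Psmb10 by 0.39. The interaction of Psmb8 was 1.3 ± 0.266 (limma adjusted p = 0.00161). The constitutive partners of these subunits gave 0.60 for Psmb5 101558_s_at, 0.76 for Psmb6 and -0.03 for Psmb7 in the same interaction, none of them called. Of 18 interferon response genes, 6 were higher and 0 lower in mdx diaphragm at 112 days, against 7.65% and 4.52% of all probe sets.

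Proteins that work beside the listed subunits were measured through 11 genes. In control diaphragm 3 of them fell with age and 1 rose, against 20.3% lower and 21.4% higher of all probe sets, and their median difference was 0.06. Sem1, a 19S subunit without a Psm name, fell by 1.29 ± 0.185 (limma adjusted p = 2.38e-06). Pomp, the maturation factor of the 20S core, fell by 0.76, and Akirin2, which helps proteasomes enter the nucleus, by 0.42. Psmg3, an alpha ring chaperone, rose by 1.22. In mdx diaphragm 0 of the 11 were called with age, and the interaction of Sem1 was 1.07 ± 0.262 (limma adjusted p = 0.00784). At 112 days Sem1 was higher in mdx diaphragm by 0.56 (limma adjusted p = 0.0435). At 56 days Uchl5, a proteasome-bound deubiquitinase, was lower in mdx diaphragm by 0.87, and Psmg4, a chaperone of the core, higher by 0.59. Over the 6 ages Ecpas, a proteasome-binding scaffold, was lower in mdx diaphragm by 0.22. Of all probe sets, 9.27% were higher and 7.38% lower at 56 days, and 10.4% and 7.41% over the 6 ages.

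Upstream of the proteasome the picture was mixed. Of 20 genes for ubiquitin and its activating and conjugating enzymes, 4 rose and 5 fell with age in control diaphragm, close to the 21.4% higher and 20.3% lower of all probe sets. Ube2b, a conjugating enzyme, rose by 1.51 ± 0.123 (limma adjusted p = 6.07e-11), and Ube2n, which builds lysine-63 chains, fell by 0.62. At 112 days Ube2b, Ube2d3 and Ube2r2 were lower in mdx diaphragm, by 0.88, 0.63 and 0.41, and none was higher. These were 3 of the 20, against 4.52% lower and 7.65% higher of all probe sets. Ube2b was also lower at 56 days, by 0.94. Of 18 ligase genes, Cbl rose and Nedd4 and Nedd4l fell in control diaphragm, smaller shares than among all probe sets. By genotype 0 ligases were called at 7, 14, 28 and 112 days. Nedd4l was lower in mdx diaphragm at 23 days, by 0.81, and for the mean over the ages, by 0.21. At 56 days Ube4b was higher by 0.75 and Cul3 lower by 0.44, and Cul3 was also lower for the mean over the ages, by 0.16. Of 10 genes for shuttles and the segregase Vcp, Vcp and Bag6 fell by 0.61 and 0.59 in control diaphragm and Zfand5, which stimulates the proteasome in muscle wasting, rose by 0.48. Zfand5 was lower in mdx diaphragm at 23 and 56 days, by 0.49 and 0.64. Of all probe sets, 2.68% were higher and 0.807% lower at 23 days. At 56 days the shares were 9.27% and 7.38%, and for the mean over the ages 10.4% and 7.41%.

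Of 10 transcription factors known to act on proteasome genes, 5 rose and 0 fell with age in control diaphragm, against 21.4% higher and 20.3% lower of all probe sets. Nfe2l1 rose by 0.78 ± 0.109 (limma adjusted p = 1.52e-06) and Nfe2l2 by 0.81, and the small Maf partners Mafk and Maff by 0.89 and 1.58. Foxo4 rose by 1.07. At 112 days Mafk and Nfe2l1 were lower in mdx diaphragm, by 1.01 and 0.32, and Nfya, a subunit of NF-Y, was higher by 1.08. Their interactions were -1.44 for Mafk and -0.62 for Nfe2l1, both called, opposite in sign to those of the 10 members. Nfe2l1 protein is known to be controlled after translation, which these arrays do not read.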

How the data were processed

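Total RNA of mouse diaphragm was measured on 36 arrays, 3 for each of 12 groups of age and genotype. Each deposited column gives probe set intensity, unlogged, for 1 array; its computation by the authors was not given in the sources used here. As a check, the mean between percentiles 2 and 98 was 1499.2 to 1499.7 on every array, so the arrays were used as deposited. The array median ran between 450.6 and 723.4, and the number of arrays limits the precision.

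After 66 control probe sets were left out, log2(intensity + 32) was fitted with limma 3.58.1 in R 4.3.3, on 9291 probe sets with at least 3 arrays at or above 374.5, percentile 40 of all values. One model with a mean for each of the 12 groups gave every contrast, with p-values adjusted by Benjamini-Hochberg over all 9291 in each contrast. The fit was tested on simulated data. Probe sets were named through the platform annotation, and 2 with several Psme symbols were left out. Partner genes are represented by 1 probe set each, the brightest.

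The members and the gene lists were chosen with earlier results of these data known. Named were all called members for genotype contrasts, those next in order, and the called members of the ageing contrasts by role. Alternatives were a smaller and a larger pseudocount, no filter or percentile 60, quantile normalization, array weights, a replicate block, only the arrays compared, each array left out, arrays with albumin above 10000 left out and the Gapdh ratio as a covariate. The array median as a covariate and 1 probe set per gene were added after seeing the data.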

Additional observations from a re-analysis of the deposited data

Results flagged for a closer look

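For 10 probe sets the change between 112 and 7 days differed between mdx and control diaphragm by a limma test of the difference itself. That was 10 of 45 members, against 6.25% positive and called of all probe sets. The test over all 6 ages, for any dependence of the genotype difference on age, called 0 of the 45. The differences of the changes, mdx minus control on the log2 scale, were 1.06 for Psmd8, 1.02 for Psmd4, 0.91 for Psmc2, 0.84 for Psmd13, 0.69 for Psma7, 0.66 for Psma2, 0.63 for Psmc1, 0.57 for Psmc6, 0.52 for Psma5 and 0.50 for Psmb4 (98557_f_at). Fits without 1 of the 12 arrays concerned gave between 0.71 and 1.37 for Psmd8, which lost its call in 1 of these 12 fits. They gave between 0.48 and 0.65 for Psmc6, which lost its call in 9. Psma5, Psmb4 (98557_f_at), Psmc2 and Psmd4 each lost the call in 8 fits, and the rest in 3 to 6.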

How the results depend on the processing

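The control change with age held best: 20 members fell, against 14 to 22 under the other alternatives; leaving out single arrays gave 18 to 22 falls. The limit on albumin leaves 1 control array at 14 and at 112 days, each assumed to vary like the other groups, so counts that use them rest on a single array. No called member changed direction under any alternative: of 1845 repeats, 1531 kept the call and 314 lost it. Numbers of called members otherwise moved as follows. The numbers of higher members in control diaphragm at 112 days against 7 days, 5 at first, were 2 with 1 probe set per gene or the Gapdh ratio as a covariate and 3 with a filter at percentile 60 or the array median as a covariate (2 to 4 without single arrays). For mdx diaphragm, 1 higher and 3 lower, no filter, array weights, only the arrays compared and the albumin limit gave 0 higher; array weights and the albumin limit gave 6 lower and only the arrays compared 0 lower (0 to 1 higher and 1 to 8 lower without single arrays). The 10 interactions became 6 without a filter or with array weights, 3 with the Gapdh ratio, 1 under the albumin limit and 0 with only the arrays compared (1 to 14 without single arrays). For genotype at 23 days, 0 called, the filter at percentile 60 and the array median each gave 1 higher, and array weights 4 higher and 2 lower (0 to 1 higher without single arrays). At 28 days array weights gave 1 higher. At 56 days, 1 higher and 2 lower, no filter and only the arrays compared gave 0 higher and 1 lower, the Gapdh ratio 0 higher and the array median 2 higher and 0 lower (0 to 1 higher and 1 to 2 lower without single arrays). At 112 days, 3 higher, the filter at percentile 60 gave 5, quantile normalization 7, the array median 11 and only the arrays compared 0 (0 to 7 without single arrays). At 7 days, with 0 called, single arrays left out gave 0 to 1 lower. For the mean over the ages, 2 higher and 2 lower, no filter gave 1 higher, quantile normalization 1 lower, array weights 5 higher, the albumin limit 0 higher, the Gapdh ratio 1 higher and 1 lower and the array median 6 higher and 0 lower (1 to 3 in each direction without single arrays). For dependence of genotype on age, 0 called, the larger pseudocount and quantile normalization gave 1, the albumin limit 2, and array weights and the array median 3 (0 to 4 without single arrays). Dependence on age in control diaphragm, 30 called, ran from 27 to 31 without single arrays. The cause of these shifts was not tested. A fit of only the arrays compared estimates the spread from fewer arrays, and from those groups alone.

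Arrays with the same replicate number showed little shared deviation: their correlations ran between -0.225 and 0.147, at most 0.1 in 17 of 18 pairs. Low correlations of signal cannot exclude that such arrays were paired, so whether the numbers pair samples stayed undecided. With the replicate block, the 56-day calls were 0 higher and 1 lower, the 112-day calls 0 higher, the mean over ages 1 higher and 1 lower, the interactions 6, and the mdx change with age 0 higher; the control falls were 19.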
